A study of Mus musculus with 6 samples.

Results

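The genes described here are 46 core regulators of the mouse cell cycle: cyclins, cyclin-dependent kinases (CDKs), CDK inhibitors, the pocket proteins and E2F transcription factors, and the kinases, phosphatases and ubiquitin ligase subunits that time mitosis. They were chosen by gene symbol from the 54715 genes of the count table and sorted by phase of action into 5 groups: G1 entry (9 genes), G1 to S (6), pocket proteins and E2F (11), S to M (11), and mitosis and exit (9). RNA-Seq was done on 3 libraries of wild type (WT) and 3 libraries of *Bdh2*-knockout advanced embryonic stem cells (ASCs), which came from a cross of a female 129/sv with a GOF/GFP male mouse. Both genotypes were grown in ABCL medium, which holds activin A, BMP4, the GSK3 inhibitor CHIR99021 and leukemia inhibitory factor. *Bdh2* encodes a 3-hydroxybutyrate dehydrogenase. Knockout lines were edited with CRISPR/Cas9 and expanded from single colonies, so that the genotype and the colony cannot be told apart. No source says whether the 3 libraries of a genotype came from separate cultures, and p-values then measure the spread between these libraries, which may be technical.

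The cell cycle is driven by cyclins that switch CDKs on in a fixed order. In G1, cyclin D with CDK4 or CDK6, and then cyclin E with CDK2, phosphorylate the pocket proteins (RB and its relatives p107 and p130), which releases E2F factors to transcribe S phase genes. The INK4 proteins block CDK4 and CDK6, and p27 blocks cyclin E and cyclin A complexes. Cyclins A and B with CDK1 drive entry into mitosis, and the anaphase-promoting complex (APC/C), switched on by CDC20 and then by CDH1, destroys them. Pluripotent mouse stem cells are known for a short G1 phase, with little D cyclin, high cyclin E and few INK4 inhibitors. These are measurements of RNA. Most of the proteins are controlled also by phosphorylation and degradation, which were not measured here.

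Many mitotic genes carry a short element called CHR (TTTGAA) close to their start, often with CCAAT boxes, whereas G1 to S genes carry E2F sites. Both kinds of letters were looked for in the 300 bases from 250 before to 50 after the RefSeq start on GRCm38.p6, for the 36 members found there. The promoters below are those of the members with the largest differences between genotypes that were found there (*E2f8*, *Cdc20*, *Plk1*), of *E2f3* and *E2f2*, which changed in opposite directions, and of *Cdk1*. Capitals mark CHR letters and E2F letters (TTTCCCGC, TTTCGCGC, TTTGCCGC or TTTGGCGC), on either strand.
*E2f8*, chr7:48881547-48881846, minus strand: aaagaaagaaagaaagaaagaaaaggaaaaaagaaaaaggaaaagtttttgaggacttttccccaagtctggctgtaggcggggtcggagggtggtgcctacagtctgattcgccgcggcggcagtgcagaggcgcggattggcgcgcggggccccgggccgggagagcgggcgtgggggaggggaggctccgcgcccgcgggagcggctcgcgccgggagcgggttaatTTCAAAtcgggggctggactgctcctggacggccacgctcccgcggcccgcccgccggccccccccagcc
*Cdc20*, chr4:118437294-118437593, minus strand: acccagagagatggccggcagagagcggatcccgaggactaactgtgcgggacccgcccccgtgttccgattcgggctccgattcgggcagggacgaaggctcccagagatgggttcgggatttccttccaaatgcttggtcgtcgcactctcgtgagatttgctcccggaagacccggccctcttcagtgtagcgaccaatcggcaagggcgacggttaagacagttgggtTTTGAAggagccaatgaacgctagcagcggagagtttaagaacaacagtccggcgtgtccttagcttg
*Plk1*, chr7:122159185-122159484, plus strand: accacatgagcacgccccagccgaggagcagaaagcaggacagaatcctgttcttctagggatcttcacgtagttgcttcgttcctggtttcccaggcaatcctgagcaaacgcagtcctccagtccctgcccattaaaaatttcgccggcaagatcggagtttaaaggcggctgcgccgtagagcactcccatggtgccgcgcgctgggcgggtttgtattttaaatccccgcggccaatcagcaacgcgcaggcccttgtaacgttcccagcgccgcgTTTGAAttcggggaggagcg
*Cdk1*, chr10:69352863-69353162, minus strand: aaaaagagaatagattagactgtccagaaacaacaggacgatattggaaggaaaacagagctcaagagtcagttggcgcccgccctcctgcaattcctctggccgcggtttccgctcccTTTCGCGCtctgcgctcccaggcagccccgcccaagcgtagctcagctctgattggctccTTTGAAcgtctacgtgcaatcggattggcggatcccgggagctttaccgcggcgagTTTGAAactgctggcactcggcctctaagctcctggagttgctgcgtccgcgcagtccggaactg
*E2f3*, chr13:29986014-29986313, minus strand: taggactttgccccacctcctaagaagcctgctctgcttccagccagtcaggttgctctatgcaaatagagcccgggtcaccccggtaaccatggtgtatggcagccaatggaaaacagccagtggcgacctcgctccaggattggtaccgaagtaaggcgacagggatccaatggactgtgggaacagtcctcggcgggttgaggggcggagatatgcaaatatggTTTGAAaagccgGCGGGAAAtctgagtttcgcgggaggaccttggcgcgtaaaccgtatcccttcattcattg
*E2f2*, chr4:136172024-136172323, plus strand: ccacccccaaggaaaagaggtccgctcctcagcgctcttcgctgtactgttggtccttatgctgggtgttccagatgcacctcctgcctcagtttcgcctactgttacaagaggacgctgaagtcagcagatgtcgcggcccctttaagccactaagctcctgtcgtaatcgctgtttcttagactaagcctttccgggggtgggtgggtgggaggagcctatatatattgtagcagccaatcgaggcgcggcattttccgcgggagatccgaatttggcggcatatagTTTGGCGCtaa

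The CHR letters began 20 bases before the start of *E2f8* (on the opposite strand), 18 before that of *Cdc20* and 23 before that of *E2f3*. *Cdk1* held them at 71 and at 15 bases before its start, and E2F letters at 131 before it. In *Plk1* they lay within the transcribed bases. Both *E2f3* and *E2f2* held E2F letters, *E2f3* at 11 bases before its start and *E2f2* after its start. *E2f2* held no CHR letters. Its RefSeq start lies 120 bases from the GENCODE one. Over all members, CHR letters were in 14 of 36 promoters (38.9%), against 11.8% of the 11465 promoters of tested genes, and E2F letters in 8 of 36 (22.2%) against 4.07%. CCAAT, searched on both strands, was in 23 of 36 (63.9%) against 39.1%, and none of these motifs is contained in another. The CHR was found in 10 of the 19 members called higher in *Bdh2*-knockout ASCs, in 1 of the 5 called lower and in 3 of the 12 not called. By group, it was in 5 of 8 promoters of mitosis and exit genes and in 4 of 8 of the S to M genes, but in 1 of 7 G1 entry promoters. E2F letters were most frequent in the pocket protein and E2F group (4 of 8). A match of letters is a description and does not show that a factor binds there.

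The 6 libraries held 18927748 to 28333541 counts on genes, at which 3 counts correspond to 0.106 to 0.158 CPM (the count scaled by library size), and this floor covers counting error only. The targeted gene, *Bdh2*, had 203, 193 and 209 counts in the WT libraries and 164, 136 and 129 counts in the knockout libraries. Its normalized level in the knockout was 57.7% of WT (log2 fold change -0.79, SE 0.12, edgeR adjusted p = 0.000246). RNA outside a short deletion can still be counted, so this level does not measure the loss of the protein. The libraries differed in some markers of other cells. All 12 primitive endoderm markers listed rose, and their summed level was 250 to 273 CPM in WT and 680 to 764 CPM in *Bdh2*-knockout ASCs. Adult hepatocyte markers summed to 622, 387 and 62.3 CPM in WT replicates 1, 2 and 3 and to 51.4, 184 and 35.3 CPM in knockout replicates 1, 2 and 3, with libraries of the genotypes overlapping for all 19 of these genes tested. edgeR called 15 of these 19 lower, whereas DESeq2 and limma-voom called 0 (4 at an unadjusted p under 0.05 by each). Of 11 pluripotent stem cell markers, 6 rose and 1 fell (63.6% called, beside 41.7% of all genes tested). Of 6 fibroblast markers tested, 1 rose and 1 fell (33.3% called). The part of these markers in the results on the cell cycle genes was not tested beyond 2 fits, with a hepatocyte score as a covariate and without WT replicates 1 and 2. Their values are given below for each called member that lost its call there or whose log2 fold change moved by over 1.5 times. In RNA of a whole culture, a change in the share of cells in a phase and a change per cell cannot be told apart.

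All 46 cell cycle genes passed the filter on low counts. The edgeR quasi-likelihood test, with Benjamini-Hochberg adjustment over 16758 genes, called 23 of them higher and 6 lower in *Bdh2*-knockout ASCs at an adjusted p under 0.05, and 17 were not called. The members called make up 63% of the members, beside 41.7% of all genes tested, of which 21.0% were higher and 20.8% lower. Without overlap between the 3 WT and the 3 knockout libraries were 24 higher and 7 lower members, 31 of 46, beside 52.4% of all genes. These are all 29 called genes and, in addition, *Wee1* and *Bub1*. The changes were small. In 4 genes the log2 fold change reached 0.5, *E2f8*, *Cdc20*, *Plk1* and *Ccnd1*, all higher, and its largest value was 0.79. The median log2 fold change was 0.15 over the members and -0.01 over all genes tested. The test was repeated in 14 other fits: DESeq2, limma-voom, other scalings and count filters, the replicate number as a block, the hepatocyte score as a covariate, and each library left out in turn. Scaling by library totals in place of TMM moved the median of all genes to -0.07 and called 17 members higher and 10 lower. The number of calls fell to 18 higher and 4 lower with the hepatocyte score as a covariate, and to 19 higher and 2 lower with WT replicate 3 as the only WT library. In the 23 genes called higher, the log2 fold change kept its sign in both of these fits, was smaller in 18 with the score and in 20 with the single WT library, and had a median of 0.892 and 0.757 times its value with all libraries. In the 6 called lower it also kept its sign, with a median of 0.944 and 0.958 times.

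**Figure D1:**
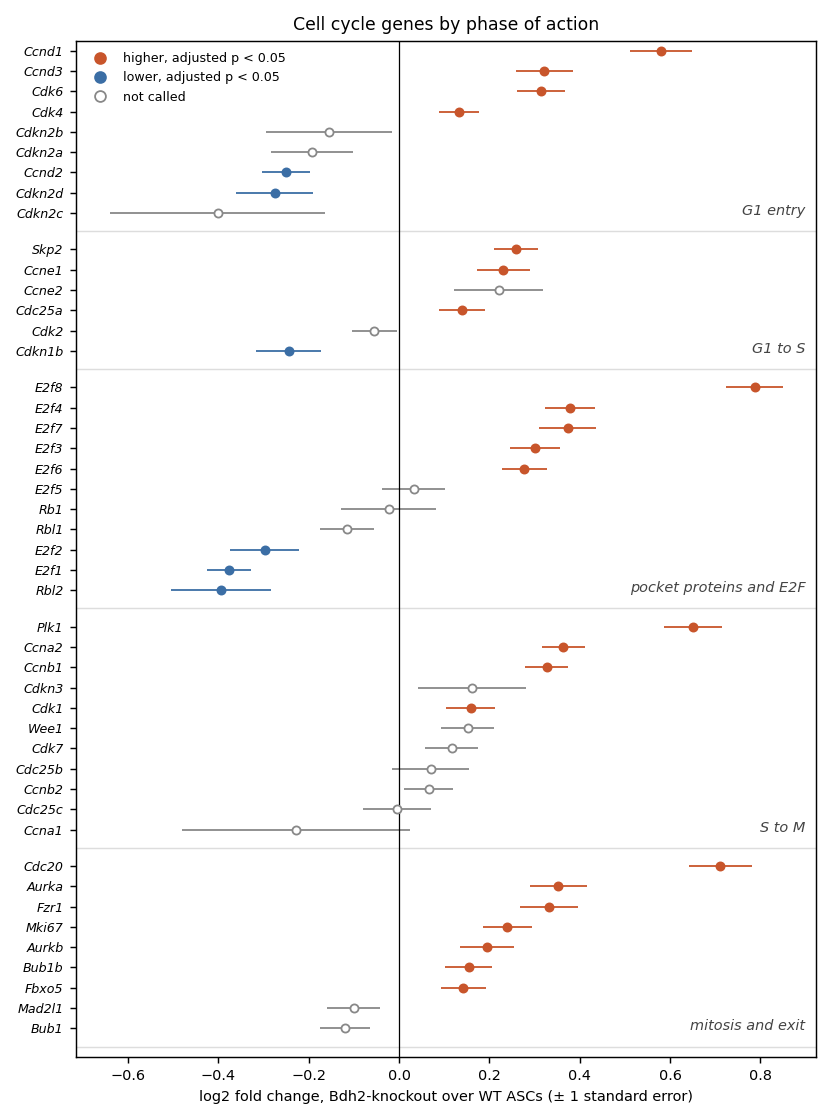
Log2 fold change of each of the 46 genes in *Bdh2*-knockout over WT ASCs (points, with bars of 1 standard error; 3 libraries per genotype), grouped by phase of action. Filled points passed an adjusted p under 0.05 in edgeR: 23 lie to the right of 0 and 6 to the left, with no filled point left of 0 in the S to M group or in the mitosis and exit group.

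The heat map of single libraries shows how even the shifts were. WT replicate 3, the deepest WT library and the WT library with the lowest hepatocyte marker level, was the highest of the 3 WT libraries in 19 of the 23 genes called higher, so that it lay nearest to the knockout. It was the lowest WT library in 2 of the 6 genes called lower. In per-length units (TPM, the count divided by the gene length and scaled to the same total in each library), the 46 genes summed to 3527, 3437 and 3772 TPM in the WT libraries and to 4155, 4362 and 4346 TPM in the knockout libraries, 1.20 times as much on average. The ratio of the means was highest in the mitosis and exit group, at 1.27, and lowest in the G1 to S group, at 1.09.

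**Figure D2:**
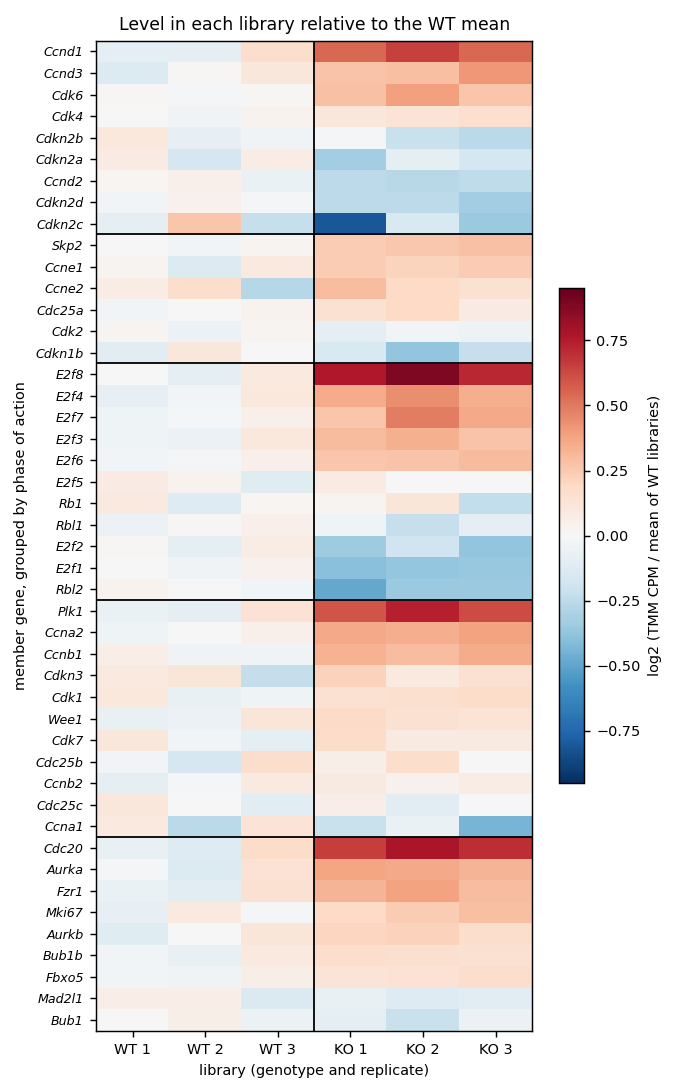
Level of each gene (rows, grouped by phase) in each library (columns), as log2 of the TMM CPM over the mean of the 3 WT libraries. The 3 knockout columns are evenly red for the genes called higher, strongest for *E2f8*, *Cdc20*, *Plk1* and *Ccnd1*, and blue for *E2f1*, *E2f2*, *Rbl2*, *Ccnd2* and *Cdkn2d*.

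Among the genes of G1 entry, both kinases and 2 of the 3 D cyclins rose, whereas *Ccnd2* and the INK4 gene *Cdkn2d* fell. *Ccnd1* (cyclin D1, ENSMUSG00000070348, GRCm38 chr7:144929931-144939925, minus strand) links growth factor signals to CDK4 and CDK6. It had 123, 124 and 148 CPM in WT replicates 1 to 3 and 192, 206 and 192 CPM in knockout replicates 1 to 3. All knockout libraries lay above all WT libraries, and WT replicate 3 was the nearest to them. The difference was 0.58 on the log2 scale (SE 0.07, edgeR adjusted p = 3.26e-05), a fold of 1.49. Of its exon bases, 23.4% are shared with *Oraov1* on the other strand, which was counted 256 to 380 times a library against 2391 to 5626 for *Ccnd1* and did not pass the test (log2 fold change -0.10).

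*Ccnd3* (cyclin D3), which serves the same kinases, had 125, 137 and 147 CPM in WT and 164, 166 and 181 CPM in knockout libraries (log2 fold change 0.32, SE 0.06, edgeR adjusted p = 0.00139). It stayed called at 0.22 with the hepatocyte score (adjusted p = 0.0162) and at 0.21 with WT replicate 3 as the only WT library (0.0278). *Ccnd2* (cyclin D2) went the other way. Its level was 43.5, 44.3 and 41.1 CPM in WT and 36.2, 35.8 and 36.3 CPM in the knockout, and all knockout libraries were below all WT libraries. The fall of 0.25 on the log2 scale (SE 0.05, edgeR adjusted p = 0.0021) was called in all 14 other fits, and missed the threshold with WT replicate 3 as the only WT library (log2 fold change -0.19, adjusted p = 0.0659). In TPM, the 3 D cyclins together went from 142 ± 12.9 to 191 ± 7.97 (SD, n = 3 each). The ratio of *Ccnd1* to *Ccnd2* was 5.66, 5.57 and 7.20 in WT libraries and 10.6, 11.5 and 10.6 in knockout libraries. *Ccnd1* thus made up 64.2% ± 1.65 of D cyclin TPM in the knockout against 58.1% ± 1.71 in WT, and *Ccnd2* 5.90% ± 0.181 against 9.56% ± 1.09.

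*Cdk6*, the less abundant of the kinases that bind D cyclins, had 80.4, 78.5 and 80.3 CPM in WT and 96.7, 105 and 95.9 CPM in knockout libraries. The rise of 0.31 in log2 (SE 0.05, edgeR adjusted p = 0.000451) was larger than the gap between any WT libraries. *Cdk4*, the member with the highest mean TPM in WT (second to *Cdc20* in the knockout), moved from 493, 480.3 and 503 CPM to 529, 539 and 549.96 CPM (log2 fold change 0.13, SE 0.04, edgeR adjusted p = 0.0283). Its call was lost without WT replicate 2, knockout replicate 2 or knockout replicate 3 (log2 fold change 0.12 to 0.14, adjusted p 0.0826, 0.0716 and 0.0948), with the replicate block (0.13, 0.0732), with library totals (log2 fold change 0.08, adjusted p = 0.19), with the hepatocyte score (0.11, 0.169) and with WT replicate 3 as the only WT library (0.10, 0.143). Moreover, 19.7% of its exon bases are shared with *Tspan31* on the other strand, whose log2 fold change was -0.07. Of its 50-base stretches, 29.5% occur in transcripts of other genes, which include *Aff4* (log2 fold change 0.34, edgeR adjusted p = 0.000121) and *Cspg5* (-0.56, 0.0206) beside *Tspan31*.

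The INK4 inhibitors were low in CPM, which does not account for gene length. Per length, the WT means were 40.0 TPM for *Cdkn2a*, 22.0 for *Cdkn2d*, 10.1 for *Cdkn2b* and 2.22 for *Cdkn2c*, beside 16.8 for *Cdk6*. *Cdkn2d* (p19INK4d) was 11.5, 12.1 and 11.6 CPM in WT and 9.87, 9.87 and 9.31 CPM in knockout libraries, which do not overlap. It fell by 0.28 in log2 (SE 0.09, edgeR adjusted p = 0.0201), but DESeq2 gave an adjusted p of 0.112 (log2 fold change -0.26), and the call was lost without WT replicate 2, knockout replicate 1 or knockout replicate 3 (-0.25, -0.28 and -0.24, adjusted p 0.0564, 0.0551 and 0.0899), with no filter on low counts (-0.26, 0.0621), with the hepatocyte score (-0.25, 0.11) and with WT replicate 3 as the only WT library (-0.26, 0.121). The size of the fall thus stayed near that with all libraries while its call was lost. *Cdkn2a*, *Cdkn2b* and *Cdkn2c* were not called, and their libraries overlapped. *Cdkn2a*, whose counts pool the transcripts of p16INK4a and of ARF, had 16.7, 14.2 and 16.6 CPM in WT and 12.6, 14.9 and 14.1 CPM in the knockout (log2 fold change -0.19, 95% interval -0.37 to -0.01, edgeR adjusted p = 0.105). Without WT replicate 2 it passed the threshold (-0.27, adjusted p = 0.0398), and likewise with scaling by library totals (-0.25, 0.042), whereas without knockout replicate 1 the value was -0.11 (0.402). *Cdkn2b* (p15INK4b) had 4.51 to 5.10 CPM in WT and 3.96 to 4.68 CPM in the knockout, and *Cdkn2c* (p18INK4c) 1.74 to 2.43 and 1.16 to 1.83 CPM. The 95% interval of the log2 fold change ran from -0.43 to 0.12 for *Cdkn2b* and from -0.87 to 0.07 for *Cdkn2c*. Changes within these ranges were not excluded. All 4 estimates were below 0. Summed in TPM, the INK4 genes had 76.7, 70.1 and 76.0 in WT and 59.7, 66.7 and 63.7 in the knockout.

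**Figure D3:**
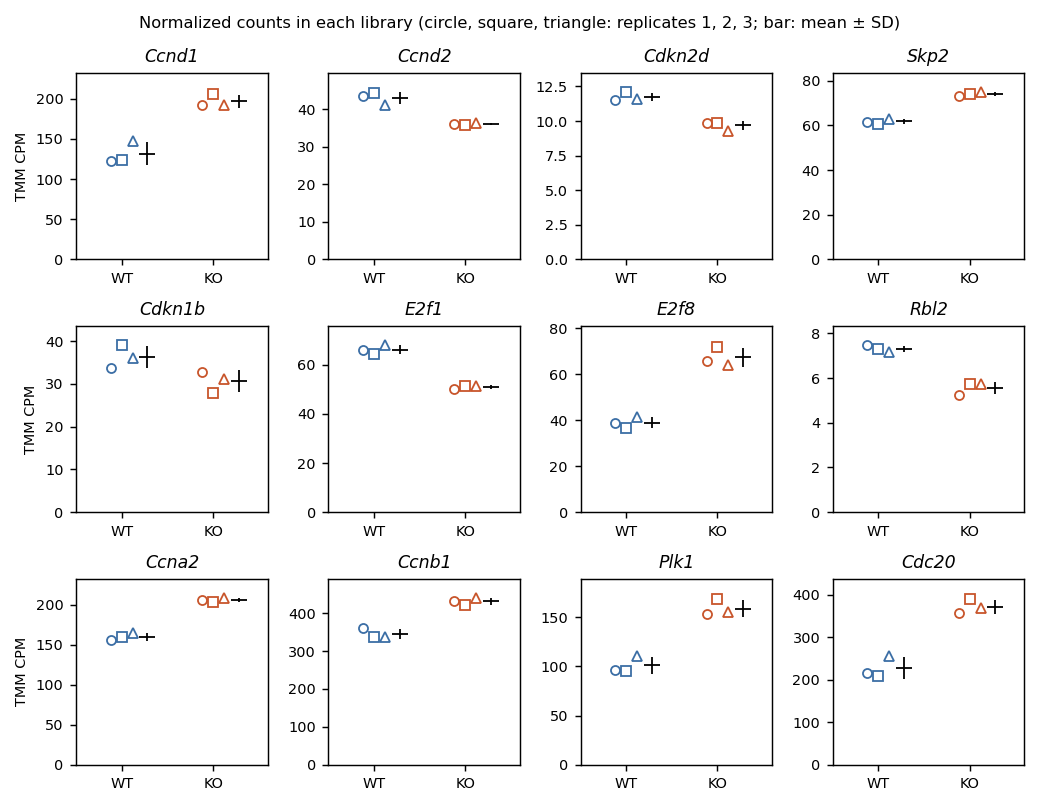
Normalized count (TMM CPM, linear axes from 0) of 12 genes in each of the 3 WT and 3 knockout libraries, with the mean and SD beside them. The genotypes do not overlap in any of the 12 panels: *Ccnd2*, *Cdkn2d*, *Cdkn1b*, *E2f1* and *Rbl2* are lower in the knockout and the other 7 are higher.

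At the step from G1 to S, 3 of the 6 genes rose and 1 fell (66.7% called, beside 41.7% of all genes). *Ccne1* (cyclin E1), which activates CDK2 at the G1 to S boundary, had 140.4, 126 and 147 CPM in WT and 163, 159.7 and 163 CPM in knockout libraries. The genotypes did not overlap, with a log2 fold change of 0.23 (SE 0.06, edgeR adjusted p = 0.00678), and the call was lost only with the hepatocyte score as a covariate (0.18, adjusted p = 0.061) and with WT replicate 3 as the only WT library (0.13, 0.079). *Ccne2* (cyclin E2), the scarcer form, had 19.1, 20.5 and 15.1 CPM in WT and 22.3, 20.8 and 20.2 CPM in the knockout, and WT replicate 2 lay within the range of the knockout libraries. It was not called (log2 fold change 0.22, 95% interval 0.03 to 0.41, edgeR adjusted p = 0.0881), but was called without WT replicate 2 (0.31, adjusted p = 0.029), with the hepatocyte score (0.37, 0.0148), with no filter on low counts (0.24, 0.0179) and with WT replicate 3 as the only WT library (0.48, 0.00366). Without WT replicate 3, the value was 0.09. *Ccne2* shares 17.4% of its exon bases with *Ints8* on the other strand. *Ints8* was counted 1328 to 1790 times a library, against 371 to 615 for *Ccne2*, and was called lower (log2 fold change -0.14, edgeR adjusted p = 0.0375). The part of *Ints8* in the value of *Ccne2* was not tested. *Cdk2*, the partner of both E cyclins, did not pass the test. It had 146, 138 and 146 CPM in WT and 135, 141 and 139 CPM in the knockout, and its 95% interval in log2 ran from -0.15 to 0.04.

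*Cdkn1b*, which encodes the CDK2 inhibitor p27, and *Skp2*, the F-box protein that marks p27 for destruction, changed in opposite directions. *Skp2* was tight within genotypes, at 61.7, 60.7 and 63.0 CPM in WT and 73.2, 74.0 and 75.0 CPM in the knockout. It rose by 0.26 in log2 (SE 0.05, edgeR adjusted p = 0.000953). *Cdkn1b* had 33.7, 39.0 and 36.1 CPM in WT and 32.8, 27.9 and 31.2 CPM in knockout libraries, with the highest knockout library just under the lowest WT library. Its fall of 0.24 (SE 0.07, edgeR adjusted p = 0.0153) was no longer called without WT replicate 2 (-0.19, adjusted p = 0.0687) or without knockout replicate 2 (-0.18, 0.0865), or with WT replicate 3 as the only WT library (-0.24, 0.0749). The ratio of *Skp2* to *Cdkn1b* in TPM was 1.06, 0.899 and 1.01 in WT and 1.29, 1.53 and 1.39 in the knockout. *Cdc25a*, the phosphatase that removes inhibitory phosphates from CDK2, moved from 111, 113 and 115 CPM to 125, 128 and 119 CPM (log2 fold change 0.14, SE 0.05, edgeR adjusted p = 0.0405). That call was kept in 7 of the 14 other fits and was lost without WT replicate 1 or 2 or knockout replicate 1 or 2 (log2 fold change 0.12 to 0.15, adjusted p from 0.0834 to 0.135), with the replicate block (0.14, 0.0841), with library totals (log2 fold change 0.08, adjusted p = 0.203), with the hepatocyte score (0.14, 0.11) and with WT replicate 3 as the only WT library (0.11, 0.213).

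Within the E2F family the direction depended on the member. Of the activators, *E2f1* and *E2f2* fell and *E2f3* rose. Of the repressors, *E2f4* and *E2f6*, together with the atypical *E2f7* and *E2f8*, rose, and *E2f5* was not called. *E2f8* had the largest change of all 46 genes. It encodes a repressor that binds DNA without a DP partner and acts on E2F targets late in S phase. *E2f8* (ENSMUSG00000046179, GRCm38 chr7:48866429-48881596, minus strand) had 38.9, 36.4 and 41.4 CPM in WT and 65.8, 71.8 and 63.9 CPM in knockout libraries, a fold of 1.73 (log2 fold change 0.79, SE 0.06, edgeR adjusted p = 1.17e-06). Its close relative *E2f7* had 32.7, 33.4 and 34.9 CPM and 40.5, 47.2 and 43.3 CPM (log2 fold change 0.37, SE 0.06, edgeR adjusted p = 0.000483). The lowest knockout library of *E2f8* was 1.54 times the highest WT library, the widest gap among the 29 genes called. Of its exon bases, 11.2% are shared with *Gm2788* on the other strand, which had 2 to 9 counts a library.

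*E2f1* (ENSMUSG00000027490, GRCm38 chr2:154559407-154569892, minus strand), the best known activator of S phase genes, was 66.0, 64.5 and 68.1 CPM in WT and 50.3, 51.3 and 51.5 CPM in the knockout. It fell by 0.38 in log2 (SE 0.05, edgeR adjusted p = 6.53e-05), with leave-one-out values between -0.40 and -0.35. *E2f2* had 21.0, 19.6 and 21.8 CPM in WT and 16.4, 18.3 and 16.0 CPM in the knockout (log2 fold change -0.30, SE 0.08, edgeR adjusted p = 0.00683). *E2f3* went from 75.2, 74.4 and 82.9 CPM to 95.3, 97.7 and 93.7 CPM (log2 fold change 0.30, SE 0.06, edgeR adjusted p = 0.000855). None of the 3 overlapped between genotypes. Their TPM sum did, at 115, 112 and 123 in WT and 106, 112 and 109.7 in the knockout. The ratio of *E2f8* to *E2f1* in TPM was 0.342, 0.327 and 0.352 in WT libraries and 0.759, 0.811 and 0.719 in knockout libraries.

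*E2f4*, which sits with p130 and p107 on silent promoters in resting cells, was the most abundant E2F per length. It had 210.3, 218 and 238 CPM in WT and 283, 301 and 282 CPM in knockout libraries (log2 fold change 0.38, SE 0.06, edgeR adjusted p = 0.000163), and its share of all E2F TPM was 55.8% ± 1.24 in WT and 60.2% ± 0.431 in the knockout. *E2f6*, a repressor that works through Polycomb proteins rather than pocket proteins, had 47.3, 47.6 and 49.8 CPM and 58.0, 58.2 and 59.3 CPM (log2 fold change 0.28, SE 0.05, edgeR adjusted p = 0.000626). *E2f5* had 20.9 to 23.9 CPM in WT and 22.7 to 23.9 CPM in the knockout (95% interval in log2 -0.10 to 0.17). In TPM the 8 E2F genes summed went from 479 ± 25.2 to 573 ± 22.0 (SD, n = 3), with non-overlapping libraries.

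**Figure D4:**
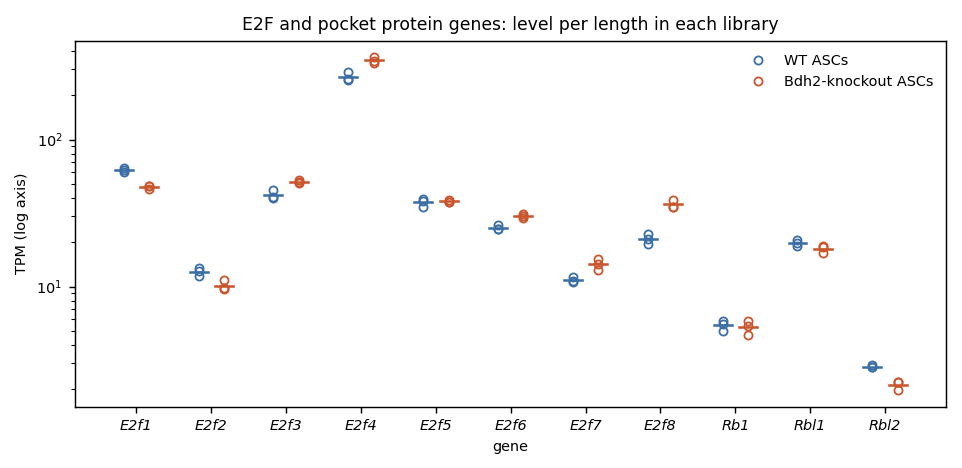
Level per length (TPM, log axis) of the 8 E2F genes and the 3 pocket protein genes in each of the 3 WT and 3 *Bdh2*-knockout libraries (circles), with group means (bars). *E2f4* is the highest and *Rbl2* the lowest, *E2f1*, *E2f2* and *Rbl2* are lower in the knockout, and *E2f3*, *E2f4*, *E2f6*, *E2f7* and *E2f8* are higher.

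*Rb1* and *Rbl2* had lower mean TPM than any E2F gene in both genotypes. *Rbl1* (p107) had 38.5, 40.3 and 41.4 CPM in WT and 38.9, 34.4 and 37.8 CPM in the knockout, and *Rb1* 11.8, 10.2 and 11.2 CPM and 11.3, 12.0 and 9.43 CPM. Neither was called, with 95% intervals in log2 of -0.23 to 0.00 and -0.23 to 0.18, and *Rbl1* passed the threshold only with scaling by library totals (-0.17, edgeR adjusted p = 0.0307). Its value was -0.19 with the hepatocyte score (adjusted p = 0.062) and -0.06 without knockout replicate 2 (0.505). *Rb1* shares 14.9% of its exon bases with *Rcbtb2* and *Lpar6* on the other strand. *Rbl2* (p130), the pocket protein typical of resting cells, was counted 137 to 181 times a library and had 7.47, 7.28 and 7.16 CPM in WT and 5.23, 5.72 and 5.72 CPM in the knockout, without overlap. It fell by 0.39 in log2 (SE 0.11, edgeR adjusted p = 0.012), while DESeq2 gave -0.38 (adjusted p = 0.0632), the fit without knockout replicate 1 -0.34 (0.0583), that with the hepatocyte score -0.36 (0.0696) and that with WT replicate 3 as the only WT library -0.37 (0.0965). These values lie between -0.38 and -0.34, near that with all libraries, and the call was lost. Beside this stands that 21.0% of the exon bases of *Rbl2* are covered by *Aktip* on the other strand. *Aktip* fell by 0.60 in log2 (edgeR adjusted p = 5.38e-06) and had 597 to 911 counts a library. Since the counting is not stated to use strand, reads of the 2 genes in the shared bases may not be told apart, and its part in the value of *Rbl2* was not tested.

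From S phase to mitosis, 4 of 11 genes rose (*Plk1*, *Ccna2*, *Ccnb1* and *Cdk1*) and 7 were not called, so that 36.4% were called higher beside 21.0% of all genes, and 0 lower beside 20.8%. *Plk1* encodes the polo kinase, which triggers mitotic entry and spindle assembly. *Plk1* (ENSMUSG00000030867, GRCm38 chr7:122159439-122169873, plus strand) had 96.6, 95.4 and 111 CPM in WT and 153, 168 and 155 CPM in knockout libraries, with a log2 fold change of 0.65 (SE 0.06, edgeR adjusted p = 7.38e-06). Of its 50-base stretches, 10.9% occur also in transcripts of other genes, among them the pseudogene *Plk-ps1*, which was counted 53 to 82 times in WT and 166 to 214 times in knockout libraries (log2 fold change 1.19, edgeR adjusted p = 4.02e-05). The pseudogene's counts are few beside the 1875 to 4590 counts of *Plk1*, and how reads with several matches were counted is not given in the sources used here.

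*Ccna2* (cyclin A2), which acts in S phase with CDK2 and then with CDK1, had 155, 159 and 165 CPM in WT and 205, 203 and 209 CPM in the knockout. *Ccnb1* (cyclin B1), the main mitotic cyclin, had 361, 337 and 336 CPM and 433, 423 and 441 CPM. The groups were far apart for both: the log2 fold changes were 0.36 (SE 0.05, edgeR adjusted p = 6.56e-05) and 0.33 (SE 0.05, adjusted p = 0.000156). *Ccna2* shares 12.5% of its exon bases with *Exosc9* on the other strand (log2 fold change -0.15). *Ccnb1* is uncertain in its level, because 42.1% of its 50-base stretches occur in transcripts of pseudogenes, namely *Ccnb1-ps*, *Gm12856* and *Gm8416*. These held 2 to 95 counts a library, and their log2 fold changes were -0.02, 0.19 and 0.19. *Ccnb2* (cyclin B2) was not called. It had 78.8, 82.8 and 88.7 CPM in WT and 88.7, 85.7 and 87.6 CPM in the knockout, with overlap and a 95% interval in log2 of -0.04 to 0.17. The ratio of *Ccnb1* to *Ccnb2* in TPM was 1.66, 1.48 and 1.38 in WT and 1.77, 1.79 and 1.83 in the knockout.

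*Cdk1*, the kinase of cyclins A and B, moved from 150.4, 134 and 137 CPM to 155, 156 and 158 CPM. WT replicate 1 lay close under the knockout libraries. The log2 fold change was 0.16 (SE 0.05, edgeR adjusted p = 0.031), and the call was lost without WT replicate 2 or any of the knockout libraries (log2 fold change 0.12 to 0.18, adjusted p from 0.057 to 0.116), with the replicate block (0.16, 0.0502) and with library totals (log2 fold change 0.10, adjusted p = 0.161). The kinase *Wee1* and the phosphatases *Cdc25b* and *Cdc25c*, which set and remove inhibitory phosphates on CDK1, were not called. *Wee1*, the kinase that holds CDK1 inactive, had 68.4, 69.4 and 78.1 CPM in WT and 81.8, 79.7 and 78.6 CPM in the knockout, where the lowest knockout library was only just above WT replicate 3 (log2 fold change 0.15, 95% interval 0.04 to 0.27, edgeR adjusted p = 0.0529). Without WT replicate 3 it was called (0.22, adjusted p = 0.0036), as it was by limma-voom (0.15, 0.0483), with median-of-ratios factors (0.16, 0.0489), with no filter on low counts (0.17, 0.0261) and with a mean count of at least 50 (0.14, 0.047). With library totals its log2 fold change was 0.09 (adjusted p = 0.199), with the hepatocyte score 0.08 (0.409), and with WT replicate 3 as the only WT library 0.03 (0.723). The phosphatases *Cdc25b*, at 18.4 to 23.0 CPM in WT and 20.4 to 23.1 CPM in the knockout, and *Cdc25c*, at 19.8 to 23.0 and 20.0 to 22.4 CPM, overlapped between genotypes. Their 95% intervals in log2 were -0.10 to 0.24 and -0.15 to 0.14. *Cdc25c* shares 12.7% of its exon bases with *Gm3550* on the other strand, and 22.2% of its 50-base stretches with *Gm3550* and *Il7r*. *Cdk7*, the kinase that activates CDKs and also acts in transcription, had 74.4 to 85.0 CPM in WT and 83.7 to 89.0 CPM in the knockout (log2 fold change 0.12, edgeR adjusted p = 0.13), and was called without WT replicate 1 (0.17, adjusted p = 0.0376) and with WT replicate 3 as the only WT library (0.20, 0.0342). Its value was 0.08 without WT replicate 3 (adjusted p = 0.302) and 0.06 with library totals (0.458). *Cdkn3*, a phosphatase that acts on CDKs, had 5.82 to 7.38 and 7.26 to 7.95 CPM. *Ccna1* (cyclin A1), known from germ cells, was near 1 CPM in every library, and with a mean count under 50 its interval, -0.72 to 0.27 in log2, was wide.

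In mitosis and mitotic exit, 7 of 9 genes rose (77.8%, beside 21.0% of all genes higher), and 4 of 9 were called with the hepatocyte score, without WT replicate 1, WT replicate 2 or knockout replicate 2, and with WT replicate 3 as the only WT library. *Cdc20*, which activates the APC/C at the start of anaphase, changed most. *Cdc20* (ENSMUSG00000006398, GRCm38 chr4:118432901-118437352, minus strand) had 215, 208 and 256 CPM in WT and 357, 388 and 367 CPM in knockout libraries, a fold of 1.64 (log2 fold change 0.71, SE 0.07, edgeR adjusted p = 6.92e-06). Leaving out each library in turn gave 0.65 to 0.81. Of its 50-base stretches, 11.6% occur in transcripts of other genes, among them *Elovl1* (log2 fold change 0.04), *Gm7856* and *AC132235.3*, the last 2 with at most 1 count a library. *Fzr1*, which encodes CDH1, the activator that takes over in late mitosis and G1, had 100.04, 97.4 and 115 CPM and 131, 136 and 128 CPM (log2 fold change 0.33, SE 0.06, edgeR adjusted p = 0.00117). With WT replicate 3 as the only WT library it was still called, at 0.18 (adjusted p = 0.0326), and with the hepatocyte score at 0.27 (0.00854). The ratio of *Cdc20* to *Fzr1* in TPM was between 5.13 and 5.32 in WT and between 6.56 and 6.90 in the knockout. *Fbxo5*, which encodes the APC/C inhibitor EMI1, moved from 96.0, 95.9 and 102 CPM to 106, 108 and 110.1 CPM (log2 fold change 0.14, SE 0.05, edgeR adjusted p = 0.0362). This call was kept in 7 of 14 other fits. It was lost without WT replicate 1 or 2 or knockout replicate 2 or 3 (log2 fold change 0.13 to 0.15, adjusted p 0.0914, 0.106, 0.0743 and 0.0986). Of its 50-base stretches, 8.99% occur in transcripts of other genes, among them *Glcci1*, *Gm16042* and *Gm45062*. The call was also lost with the replicate block (0.069), with library totals (log2 fold change 0.08, adjusted p = 0.19), with the hepatocyte score (0.10, 0.237) and with WT replicate 3 as the only WT library (0.08, 0.312).

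Both Aurora kinases rose. *Aurka*, which works at spindle poles and activates PLK1, had 111, 102 and 123 CPM in WT and 145, 144 and 139.96 CPM in the knockout (log2 fold change 0.35, SE 0.06, edgeR adjusted p = 0.000686). It was called also with WT replicate 3 as the only WT library, at 0.22 (adjusted p = 0.0124), and with the hepatocyte score, at 0.28 (0.00505). *Aurkb*, the kinase of the chromosomal passenger complex, had 62.5, 67.6 and 73.2 CPM and 77.9, 79.0 and 76.1 CPM (log2 fold change 0.19, SE 0.06, edgeR adjusted p = 0.0192). Its call was lost without WT replicate 1 or 2 or knockout replicate 2 (log2 fold change 0.14 to 0.19, adjusted p 0.0856, 0.0558 and 0.0545), with library totals (log2 fold change 0.14, adjusted p = 0.0713), with the hepatocyte score (0.13, 0.171) and with WT replicate 3 as the only WT library (0.08, 0.343). The difference between both kinases was not tested. *Mki67*, whose protein Ki-67 coats mitotic chromosomes and marks cycling cells, had 207, 233 and 217 CPM in WT and 249.9, 259 and 266 CPM in knockout libraries (log2 fold change 0.24, SE 0.05, edgeR adjusted p = 0.00336).

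The spindle checkpoint genes, whose products hold CDC20 back until chromosomes are attached, were called in 1 case of 3, higher, beside 21.0% of all genes. *Bub1b* (BUBR1) had 217, 209 and 235 CPM in WT and 247, 245 and 244 CPM in the knockout (log2 fold change 0.15, SE 0.05, edgeR adjusted p = 0.0301). That was the least stable of the calls, kept in 6 of 14 other fits and lost without any single library except WT replicate 3 (log2 fold change 0.12 to 0.17, adjusted p from 0.064 to 0.113). It was also lost with the replicate block (0.16, 0.0511), with library totals (log2 fold change 0.10, adjusted p = 0.144), with the hepatocyte score (0.10, 0.244) and with WT replicate 3 as the only WT library (0.06, 0.398). *Bub1* had 168, 176 and 163 CPM in WT and 158, 146 and 162 CPM in the knockout, which do not overlap, and was not called (log2 fold change -0.12, 95% interval -0.23 to -0.01, edgeR adjusted p = 0.0967). It passed the threshold without WT replicate 3 (-0.15, adjusted p = 0.0429) and with library totals (-0.18, 0.0198), whereas its value was -0.07 without knockout replicate 2 (adjusted p = 0.391) and -0.07 with WT replicate 3 as the only WT library (0.481). *Mad2l1* (MAD2) had 134, 134 and 117 CPM and 122, 118 and 119 CPM, with WT replicate 3 below all knockout libraries (log2 fold change -0.10, edgeR adjusted p = 0.189). Without that library it was called (-0.16, adjusted p = 0.0122), as with library totals (-0.16, 0.0468). With the hepatocyte score it had -0.02 (adjusted p = 0.829), and with WT replicate 3 as the only WT library 0.03 (0.721).

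Lists of genes that work beside these 46 were counted in the same fit. Of 37 spindle, kinetochore and cytokinesis genes, 21 rose and 2 fell (62.2% called, beside 41.7% of all genes, median 0.16 in log2). The separase gene *Espl1*, whose product cuts cohesin at anaphase, had the smallest p of that list (202 ± 14.1 CPM in WT and 355 ± 10.4 CPM in the knockout, SD, n = 3, log2 fold change 0.82, edgeR adjusted p = 3.82e-07), followed by the mitotic kinesin *Kif20a* (0.55, 4.73e-05). *Kntc1* and *Knl1*, both of the kinetochore, fell by 0.19 and 0.20. Of 25 APC/C and SCF ubiquitin ligase genes tested, 11 rose and 14 were not called (44% higher, beside 21.0% of all genes). Among these, *Ube2c*, the APC/C's ubiquitin-conjugating enzyme, had a log2 fold change of 0.53 (edgeR adjusted p = 2.07e-05), and *Ccnf*, the F-box protein cyclin F, 0.47 (5.36e-05).

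Of 24 E2F-controlled S phase genes, 10 rose, 2 fell and 12 were not called (50% called, beside 41.7% of all genes). The helicase subunits *Mcm4* and *Mcm7* rose by 0.40 and 0.32 in log2 (edgeR adjusted p = 0.000152 and 0.000216), and the polymerase alpha genes *Prim1* and *Pola1* fell by 0.18 each (0.0174 and 0.0208). In the list of E2F partners and the DREAM/MuvB complex, 3 of 11 genes rose and 1 fell, 36.4% called beside the 41.7% of all genes. *Mybl2* and *Foxm1*, which act with MuvB on CHR promoters, rose by 0.29 and 0.28 (edgeR adjusted p = 0.000635 and 0.00181), and *Mybl1* fell by 0.37. Of 38 other cyclins and CDKs tested, many of them with roles in transcription, 7 rose and 9 fell, a share of 42.1% called beside the 41.7% of all genes. *Cdk12*, a kinase of RNA polymerase II, rose by 0.59 and *Cdk18* and *Cdk10* fell by 0.73 and 0.55 in log2. Of 22 G2 checkpoint and CDK phosphorylation genes, 6 rose and 7 fell (59.1% called, beside 41.7% of all genes). Named by the smallest p, *Ccnf* (0.47, SE 0.06) and the phosphatase subunit gene *Ppp2r2d* (0.30, SE 0.05) rose, and *Gadd45b* (-1.01, SE 0.17) and the checkpoint kinase gene *Atr* (-0.36, SE 0.07) fell. The median log2 fold change of both lists was near that of all genes (-0.003 and -0.02).

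**Figure D5:**
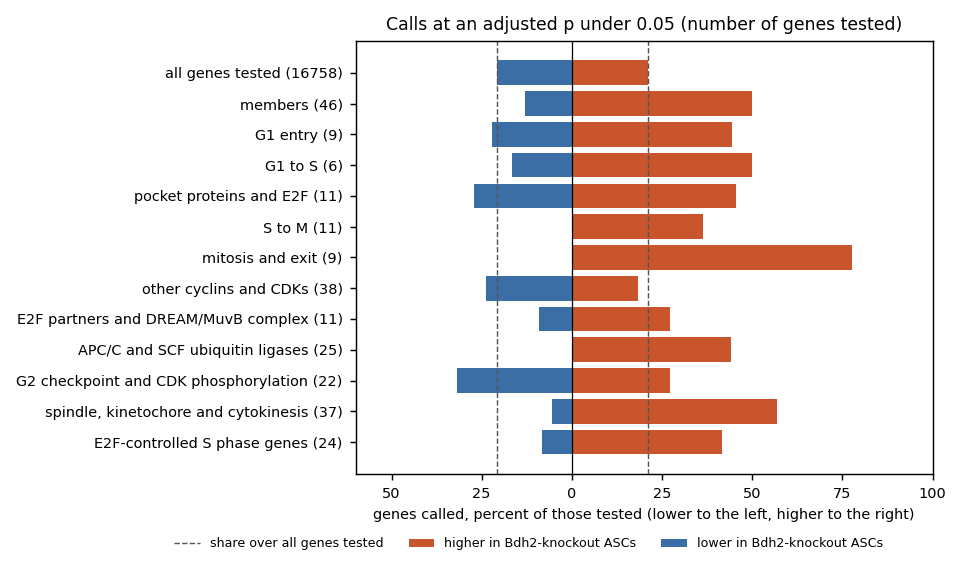
Share of genes called higher (right) and lower (left) in *Bdh2*-knockout ASCs, in percent of the genes tested in each group (number in brackets), with dashed lines at the shares over all 16758 genes (21.0% and 20.8%). The bars to the right are longest for mitosis and exit (7 of 9) and for the spindle list (21 of 37), whereas other cyclins and CDKs lie near the dashed lines on both sides.

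By group, the members called were 4 higher and 2 lower of 9 in G1 entry (median log2 fold change -0.16), 3 higher and 1 lower of 6 in G1 to S (0.18), 5 higher and 3 lower of 11 among pocket proteins and E2F (0.03), 4 higher of 11 in S to M (0.15) and 7 higher of 9 in mitosis and exit (0.19). The shares called were 66.7%, 66.7%, 72.7%, 36.4% and 77.8% in that order, beside 41.7% of all genes. Groups of this size change by a large share with a single call, and no test between them was made. In G1 to S, 2 of 6 were called without knockout replicate 2 and with WT replicate 3 as the only WT library, and in G1 entry 3 of 9 with that library alone. The 6 genes that fell came from the first 3 groups: *Ccnd2*, *Cdkn2d*, *Cdkn1b*, *Rbl2*, *E2f1* and *E2f2*. Of the 23 that rose, 16 were called in all 14 other fits, and of the 6 that fell, *Ccnd2*, *E2f1* and *E2f2*. With 3 libraries a genotype, an exact permutation test of a single gene cannot give a p below 0.1.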

How the data were processed

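After trimming and quality filtering, the authors aligned reads to GRCm38 by HISAT2 (version 2.0.5 in the submitters' processing notes), assigned them to genes by FeatureCounts and deposited a table of raw counts for 54715 genes with gene lengths. The TruSeq RNA kit is named in the labels. The annotation release, the use of strand and the treatment of reads with several matches are not given in the sources used here. GENCODE M21 holds 99.44% of the gene identifiers, and from it exons, coordinates and shared 50-base stretches were taken (45 of the 46 genes have the same position there). Larger overlaps and shared stretches are given beside the gene.

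Samples were grouped by genotype (3 WT, 3 knockout), with 18927748 to 28333541 counts each. Counts were fitted in R 4.3.3 with edgeR 4.0.16 (TMM, filterByExpr, glmQLFit and glmQLFTest, 1 factor for genotype, all 6 libraries), adjusted over 16758 genes with a threshold of 0.05. The standard errors come from that fit. The 95% intervals were built from them with a normal quantile, not with the reference distribution of the test. They are therefore narrower than the test implies. For *Cdkn2a* the interval leaves out 0 although the unadjusted edgeR p is 0.0531. CPM are TMM-normalized, and TPM were computed from counts and the listed lengths. Ratios, sums and shares of TPM are descriptions without a test. The code was tested on simulated counts with known changes. Alternatives were DESeq2 1.42.0, limma-voom (limma 3.58.1), other scalings, other filters, the replicate number as a block, a hepatocyte marker score as a covariate and each library left out in turn. Leaving out WT replicates 1 and 2 together was chosen after seeing the data, and the lone WT library is then assumed to vary like the knockout libraries. Promoters of 36 of the 46 genes came from RefSeq (GRCm38.p6).

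The members and the lists of other genes were chosen with earlier results of these data known. By rule, all 46 members are given, called and non-overlapping ones with every library, and from each other list up to 2 genes per direction with the smallest p and a mean count of at least 50. Protein levels, the other experiments of the study and ESCs were not analysed here. Plots were made with Python 3.11.15 and matplotlib 3.10.9.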

Additional observations from a re-analysis of the deposited data

How the results depend on the processing

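For 19 of the 29 members called, the call was kept in all 14 other fits. DESeq2 called 23 higher and 4 lower, limma-voom and median-of-ratios factors 24 and 6 each, no filter on low counts 25 and 5, a mean count of at least 50 24 and 6, library totals 17 and 10, and the hepatocyte covariate 18 and 4. The replicate number as a block gave 18 and 6, 24 of them shared with the fit without it, and 6452 genes in all. Deviations of libraries with the same number correlated at -0.16, 0.05 and 0.21 over genes, so that the numbers were not taken to pair the samples.

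Leaving out each library in turn gave 5613 to 7409 calls over all genes, 22 to 32 members called, 17 to 24 higher and 4 to 8 lower. By group the range was 4 to 6 in G1 entry, 2 to 4 in G1 to S, 7 to 8 in pocket proteins and E2F, 3 to 5 in S to M and 4 to 9 in mitosis and exit. By list it was 10 to 15 for ubiquitin ligases (11 with all libraries), 4 to 4 for DREAM/MuvB, 7 to 14 for S phase genes (7 of 24 without knockout replicate 3, against 12), 10 to 13 for the G2 checkpoint, 0 to 20 for hepatocyte markers, 2 to 2 for fibroblast markers, 10 to 17 for other cyclins and CDKs (16 with all, and 10 without WT replicate 2 or knockout replicate 1 or 2), 7 to 8 for pluripotency, 12 to 12 for primitive endoderm and 17 to 23 for the spindle list. With WT replicate 3 as the only WT library, there were 4386 calls over all genes, 2 members lower, 3 called in G1 entry, 2 in G1 to S, 4 in mitosis and exit, 7 ubiquitin ligase genes and 0 hepatocyte markers (0 at an unadjusted p under 0.05). The hepatocyte covariate left 4 calls in mitosis and exit, 10 other cyclins and CDKs, 4 pluripotency genes and 0 hepatocyte markers (1 at an unadjusted p under 0.05). DESeq2 and limma-voom called 0 hepatocyte markers. The cause of these moves was not tested, though fewer libraries enter some of the fits.

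The genes *Rb1*, *E2f5*, *Ccnb2*, *Cdc25b*, *Cdc25c* and *Mad2l1*, which were not called, changed sign. *Rb1* had a log2 fold change of 0.0474 with the covariate, and -0.0919 to 0.0809 without 1 library each. *E2f5* had -0.0263 with library totals, and -0.0249 to 0.0709 without 1 library. *Ccnb2* had -0.00498 with the covariate and -0.0238 with 1 WT library. *Cdc25b* had -0.0922 with 1 WT library, and -0.00389 to 0.169 without 1 library. *Cdc25c* had 0.00734 with DESeq2, 0.0105 without a filter, 0.0352 with the covariate and 0.0996 with 1 WT library, and -0.058 to 0.0497 without 1 library. *Mad2l1* had 0.0311 with 1 WT library. In TPM the ratio of the summed members was 1.20, and 1.21 in TMM FPKM. The mean count was under 50 for *Cdkn2c* and *Ccna1*, and depth limits these most.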
